A study of Mus musculus with 8 samples.

Results

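The 38 genes described here encode lysosomal proteins: 29 soluble proteins that carry the mannose 6-phosphate tag, 6 proteins of the lysosomal membrane, the transcription factors TFEB and TFE3, and progranulin. They were taken by gene symbol from a table of 26146 genes, and all 38 were in the table and among the 13439 genes with enough reads to be tested. Messenger RNA was sequenced in bulk from Lin-Sca1+Kit+ (LSK) cells, the sorted bone marrow fraction that holds haematopoietic stem cells and early multipotent progenitors, with 1 library per mouse. In 4 mice (Jmjd6 KO) a floxed Jmjd6 gene had been removed in blood-forming lineages through a cell type specific Cre, and 4 mice were wild type. The sources used here do not name the Cre, the age or the strain, nor do they say whether the wild type mice carried Cre or the floxed allele. The JMJD6 protein is an oxygenase of the JmjC family with lysine hydroxylase activity toward splicing factors.

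Lysosomes are acidic compartments in which proteases, glycosidases, sulfatases and lipases break down material from endocytosis and autophagy. Most of the soluble enzymes receive a mannose 6-phosphate tag in the Golgi apparatus and are carried onward by the receptors encoded by Igf2r and M6pr, whereas membrane proteins travel by sorting signals in their cytosolic tails. TFEB and TFE3 enter the nucleus when mTORC1 is inactive and switch on many lysosomal genes through promoter sites built around CACGTG. In haematopoietic stem cells, lysosomal activity is known to bear on quiescence and on the clearing of mitochondria.

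Total counts ranged from 9344779 to 15079960 per library, and each member had at least 60 counts in every library. Levels are given in CPM, the read count of a gene relative to the TMM-adjusted library size. Jmjd6 itself, which checks the labels, fell to 49.0% of wild type (log2 fold change -1.03, adjusted p = 0.0381 by edgeR). That call was lost by edgeR when any library other than KO replicate 3 was left out, while the groups did not overlap. Its level was 52.5, 63.7, 54.6 and 63.7 CPM in wild type replicates 1 to 4 and 28.7, 28.1, 30.7 and 27.5 CPM in KO replicates 1 to 4, a gene total that does not separate deleted from retained exons. Markers of the LSK gate such as Kit and Ly6a were present in every library, with a summed level between 2610 and 3275 CPM over 8 genes. The 8 did not move as one: Hlf and Mecom, transcription factors of stem cells, had a log2 fold change of -0.65 and -0.58, whereas Slamf1 and Cd48, surface markers, had 0.93 and 0.86. Kit, Cd34 and Flt3 gave -0.03, -0.04 and -0.03, and Ly6a 0.37. The groups did not overlap for Hlf (118 to 161 CPM in KO, 178 to 276 CPM in wild type), Slamf1 or Cd48. Of the 8 that is 2 higher and 1 lower in KO, against 4.19% of all tested genes in either direction. None of the 8 passed the test, the smallest adjusted p being 0.489 by edgeR, and their part in the members' values was not tested. At least 3 of the 8 libraries differed from the rest in a way that bears on the results. Wild type replicate 2 is taken up below, with base composition. On the first principal component (37.8% of variance) KO replicate 3 scored 83.9, and the other libraries lay between -28 and 9.41. Wild type replicate 4 and KO replicate 3 had 0 Y-linked counts. Xist, the RNA of the inactive X chromosome, stood at 1551 and 893 CPM there and at 0.206 to 4.93 CPM in the rest. This marks their mice as female and the others as male. Of the members, Gla, Ids, Lamp2 and Tfe3 lie on the X chromosome. Wild type replicate 1 held granule genes at a summed 5226 CPM against 982 to 2379 CPM elsewhere.

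The comparison of KO with wild type asked whether lysosomal transcripts differ when Jmjd6 is deleted. By edgeR's quasi-likelihood test none of the 38 members passed an adjusted p of 0.05, the smallest being 0.817. Over all genes 8 of 13439 (0.0595%) passed. At an unadjusted p under 0.05 there were also 0 of 38 members, where 6.06% of all tested genes lay. By DESeq2's Wald test 0 members passed against 0.492% of genes, and by limma voom with sample weights 0 members passed against 0.231%. Voom gave Cd63, Neu1 and Lipa an unadjusted p under 0.05, which is 3 of 38 members against 9.96% of all genes. The log2 fold change of KO against wild type was above 0 in 17 members and below 0 in 21, with a median of -0.04 beside 0.00 over all tested genes, of which 49.6% lay above 0.

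The members' fold changes were narrow in range, from -0.39 for Idua to 0.37 for Ctsc on the log2 scale. Their standard errors had a median of 0.18, against 0.23 over all genes, and the intervals give the size of difference that the data still allow. All 38 members had a 95% interval inside a 2-fold difference either way, against 73.6% of all genes. The widest reached down to 0.50 of the wild type level for Ids and Tfe3 and up to 1.78 of it for Ctsc. An interval inside 1.5-fold either way was reached by 22 of the 38, against 33.1% of all genes. These intervals were computed from the edgeR fit and include the spread between mice. Each standard error was taken as the absolute log2 fold change divided by the square root of the test's F statistic. The intervals are therefore approximate. Their width also depends on level, for which the shares of all genes were not matched. In bulk RNA, fewer cells with a transcript and less transcript per cell cannot be told apart. Summed over the 38 genes, wild type libraries held 4975, 5634, 5132 and 5291 CPM and KO libraries 4995, 4991, 5207 and 5854 CPM. The groups overlapped, with the lowest sum in wild type replicate 1 and the highest in KO replicate 4.

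**Figure D1:**
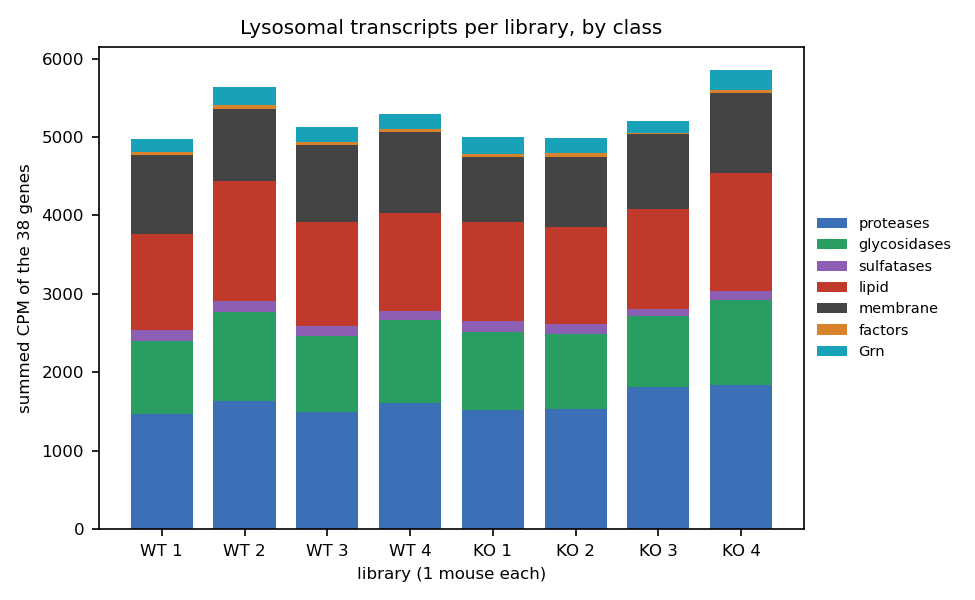
Summed CPM of the 38 lysosomal genes in each of the 8 libraries (1 mouse each), as bars from 0 split by class. The wild type bars reach 4975 to 5634 CPM and the KO bars 4991 to 5854 CPM.

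The soluble proteases, 8 cathepsins and the tripeptidyl peptidase Tpp1, had a median log2 fold change of 0.05, with 6 of 9 above 0 and 0 past the test. Without KO replicate 3, the highest library in 5 of the 9, the median was -0.02. Ctsd, the aspartic protease cathepsin D, had the highest level of this class per length of transcript. It stood at 453, 520.1, 491 and 462 CPM in wild type replicates 1 to 4 and at 519, 514, 373 and 618 CPM in KO replicates 1 to 4. The lowest and the highest library were both KO, so the wild type range lay inside that of KO (log2 fold change 0.07, 95% interval -0.28 to 0.43, adjusted p = 0.941 by edgeR). Ctsh, an aminopeptidase cathepsin, was the lowest protease per length, at 17.8, 18.4, 18.2 and 19.6 CPM in wild type libraries and 12.4, 14.5, 14.4 and 24.8 CPM in KO. KO replicates 1 to 3 were below every wild type library and KO replicate 4 above them all (log2 fold change -0.16, adjusted p = 0.907 by edgeR).

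The largest positive fold change among members was that of Ctsc, cathepsin C, the dipeptidyl peptidase that activates granule serine proteases. Ctsc stood at 108, 132, 124 and 158 CPM in wild type libraries and at 134, 133, 247 and 163 CPM in KO. KO replicates 1 and 2 lay inside the wild type range, and KO replicate 3 was far above it (log2 fold change 0.37, interval -0.09 to 0.83, adjusted p = 0.832 by edgeR; 0.13 without KO replicate 3). The 10 neutrophil and granule markers had a summed level of 1550 to 2379 CPM in KO and 982 to 5226 CPM in wild type. Without wild type replicate 1 the wild type range was 982 to 1254 CPM, below every KO library. Most of that sum was Mpo, a peroxidase, at 1087 to 1692 CPM in KO and 691 to 3293 CPM in wild type. The granule serine protease genes among them, Elane, Prtn3 and Ctsg, gave log2 fold changes of -1.76, -0.18 and 0.37. Each was highest in wild type replicate 1, at 785, 555 and 491 CPM, and none passed the test. Wild type replicates 2 to 4 held Elane at 13.7 to 56.0, Prtn3 at 209.8 to 231 and Ctsg at 39.0 to 77.1 CPM. In KO these 3 genes stood at 42.5 to 123, 224 to 340 and 154 to 255 CPM. The part of these genes in the Ctsc values was not tested. Ctsz, the carboxypeptidase cathepsin Z, stood at 174, 162, 140.3 and 169.7 CPM in wild type libraries and at 177, 165, 226 and 231 CPM in KO (log2 fold change 0.31, interval -0.03 to 0.64, adjusted p = 0.824 by edgeR). KO replicates 3 and 4 were high, while KO replicate 2 lay inside the wild type range. With a trend in transcript length and level removed, the log2 fold change of Ctsz was 0.15. Other proteases, Ctsb, Ctsa, Ctss, Ctsl and Tpp1, had log2 fold changes between -0.05 and 0.22. Ctss, cathepsin S, which trims the invariant chain in antigen presenting cells, averaged 85.4 ± 11.8 CPM in wild type libraries and 99.6 ± 28.1 CPM in KO (SD, n = 4).

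The 10 glycosidases, which remove sugars from glycoproteins, glycolipids, glycogen and glycosaminoglycans, had a median log2 fold change of -0.01, with 5 above 0 and 5 below, and lay between -0.09 and 0.02 when single libraries were left out. Hexa, the alpha subunit of beta-hexosaminidase whose loss causes Tay-Sachs disease, was highest per length. Hexa stood at 171, 187, 145 and 187 CPM in wild type libraries and 149.8, 168, 177 and 186 CPM in KO, and every KO library lay inside the wild type range (log2 fold change -0.02, interval -0.32 to 0.29, adjusted p = 0.983 by edgeR). Gla, the alpha-galactosidase that is deficient in Fabry disease, was lowest per length, at 15.9, 9.64, 10.2 and 11.3 CPM in wild type libraries and 11.2, 9.87, 14.6 and 13.5 CPM in KO. Here too the KO libraries stayed within the wild type range (log2 fold change 0.07, adjusted p = 0.964 by edgeR).

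Neu1, the sialidase that works in a complex with cathepsin A, was the only member whose groups did not overlap. Wild type libraries held 36.0, 38.8, 40.2 and 36.8 CPM and KO libraries 31.7, 28.3, 33.5 and 35.2 CPM. Every KO library was below every wild type library, with a gap between KO replicate 4 and wild type replicate 1 that was small beside the spread within each group. That is 1 of 38 members, against 4.19% of all tested genes with groups that did not overlap in either direction. The mean KO level was 84.8% of wild type (log2 fold change -0.24, interval -0.57 to 0.10, adjusted p = 0.832 by edgeR), so Neu1 did not pass the test. Neu1 lies at chr17:34931253-34935953 (mm10, GENCODE M21, plus strand) and overlaps no other gene of that annotation.

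Idua, the alpha-L-iduronidase that degrades heparan and dermatan sulphate, had the lowest fold change of all members. It stood at 45.2, 65.2, 59.4 and 56.2 CPM in wild type libraries and at 47.5, 51.0, 32.0 and 42.0 CPM in KO. Only KO replicates 1 and 2 reached above the lowest wild type library (log2 fold change -0.39, interval -0.80 to 0.02, adjusted p = 0.817 by edgeR). Idua shares 15034 bases with Slc26a1 and Dgkq on the opposite strand. Whether counting used strand is not stated, so reads of these genes may not have been told apart. Other members share bases as well, among them Ctsc (4743 bases), Npc1 (5875) and Lamp1 (3317) with genes on the opposite strand. Ctsd (6757 bases) and Glb1 (6172) do so with a gene on their own strand. Gaa, the acid glucosidase of glycogen breakdown, stood at 125, 193, 156 and 155 CPM in wild type libraries and at 142, 146, 60.9 and 169.9 CPM in KO. Its KO replicate 3 was far below the other 7 libraries, which overlapped fully (log2 fold change -0.28, and -0.05 without that library). Man2b1, Glb1, Gusb, Manba and Naglu, which act on mannosides, galactosides, glucuronides and heparan sulphate, lay between -0.24 and 0.15.

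The 4 sulfatases had a median log2 fold change of -0.15, 3 of them below 0. The median was -0.02 without KO replicate 3 and -0.03 without wild type replicate 2. Arsb, which removes sulphate from dermatan and chondroitin sulphate, was highest per length, at 63.7, 53.7, 52.9 and 42.4 CPM in wild type libraries and 66.3, 55.8, 42.7 and 50.04 CPM in KO, with almost identical ranges (log2 fold change 0.01, adjusted p = 0.992 by edgeR). Ids, the iduronate sulfatase that is deficient in Hunter syndrome, was the lowest of all 38 members per length. It had 19.5, 8.65, 13.5 and 16.0 CPM in wild type libraries and 10.5, 18.2, 8.24 and 9.53 CPM in KO. The spread within each group was wide, with 1 low wild type and 1 high KO library, and the 95% interval ran from 0.50 to 1.29 of the wild type level (adjusted p = 0.87 by edgeR). Arsa, the sulfatide-degrading sulfatase, and Sgsh, which acts on heparan sulphate, gave -0.20 and -0.10, and Arsa gave 0.05 without KO replicate 3.

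Among the 6 genes of lipid breakdown the median was -0.07 (0.01 without wild type replicate 2), with 2 above 0. Psap, which encodes the precursor of the saposins that present lipids to their hydrolases, was the most abundant member per length in wild type. Wild type libraries held 557, 792, 649.8 and 593 CPM and KO libraries 641, 618, 484 and 656 CPM. The highest value was in wild type replicate 2 and the lowest in KO replicate 3, with the rest intermixed (log2 fold change -0.11, interval -0.46 to 0.24, adjusted p = 0.906 by edgeR). Smpd1, the acid sphingomyelinase, was lowest per length, at 34.9, 50.3, 33.9 and 49.9 CPM in wild type libraries and 43.2, 38.1, 30.1 and 49.3 CPM in KO. The groups overlapped over nearly their whole range (log2 fold change -0.07, adjusted p = 0.952 by edgeR).

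Npc2, the soluble carrier that hands cholesterol to the membrane protein NPC1, had the largest positive value of this class. It stood at 191, 223, 187 and 180.2 CPM in wild type libraries and at 200.3, 211, 237 and 319 CPM in KO. KO replicate 4 was well above the rest and KO replicates 1 and 2 were inside the wild type range (log2 fold change 0.31, interval -0.06 to 0.68, adjusted p = 0.832 by edgeR). Asah1, the acid ceramidase, kept a tight wild type range of 120.5 to 129.8 CPM, whereas its KO libraries lay on either side of it, at 96.5 and 98.5 CPM in replicates 1 and 2 and at 179 and 151 CPM in replicates 3 and 4 (log2 fold change 0.06). Ppt1, the palmitoyl-protein thioesterase, and Lipa, the acid lipase of cholesteryl esters, gave -0.07 and -0.18.

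**Figure D2:**
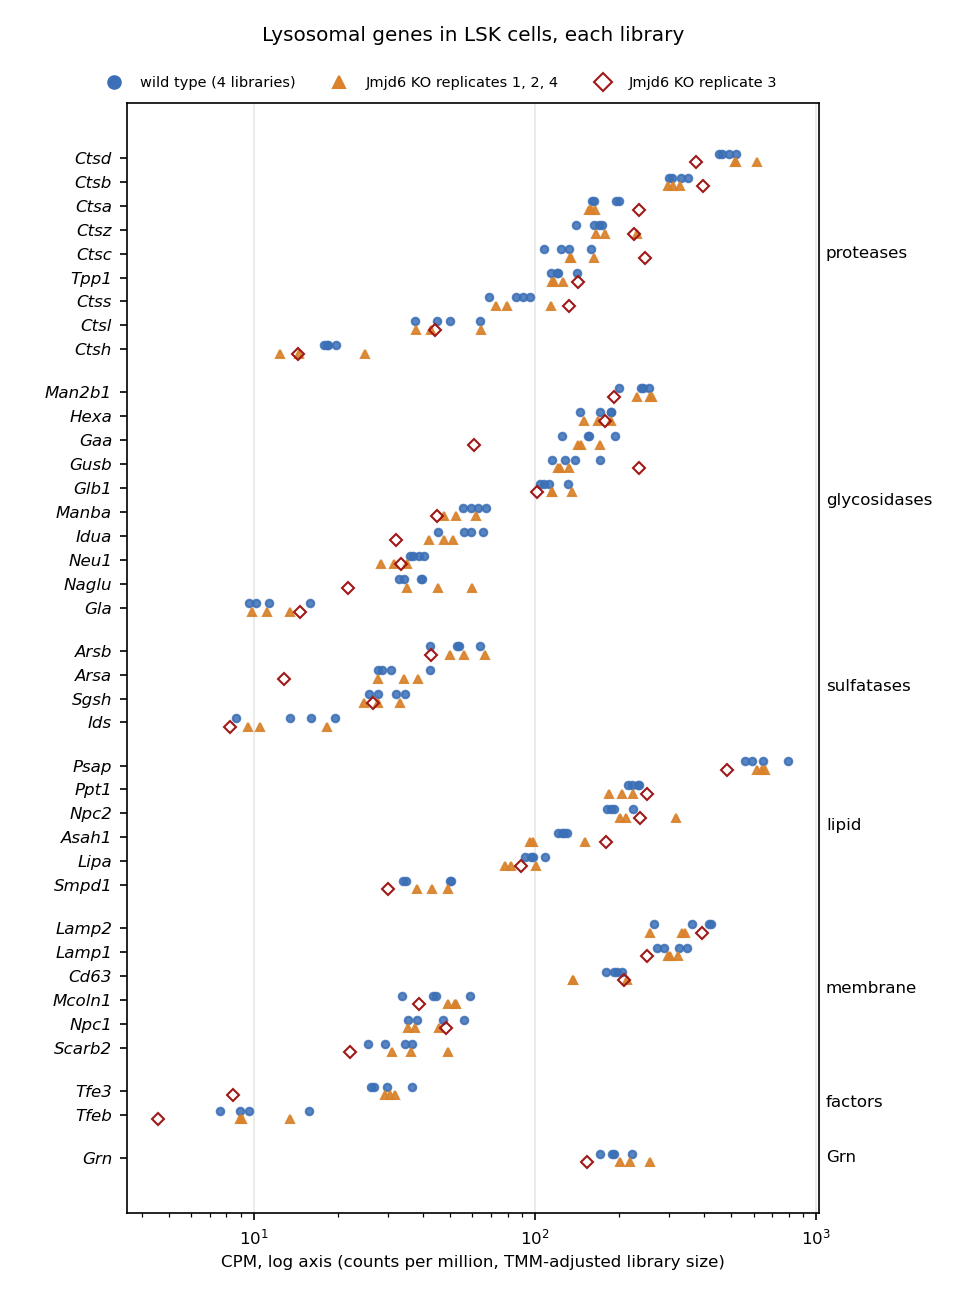
Level of each lysosomal gene in each library, in CPM on a log axis, grouped by class; circles are the 4 wild type libraries, triangles KO replicates 1, 2 and 4, and open diamonds KO replicate 3. Neu1 has no overlap between groups, and the diamonds of Gaa, Arsa, Tfe3 and Tfeb lie to the left of all other libraries.

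The 6 membrane proteins had a median log2 fold change of -0.08, with 4 below 0 and 0 past the test, and a median of 0.02 without wild type replicate 4. Cd63, a tetraspanin of lysosomes and exosomes, was highest per length, at 191, 196, 179 and 205 CPM in wild type libraries and 137, 137, 208 and 213 CPM in KO. KO replicates 1 and 2 were below every wild type library and KO replicates 3 and 4 above them all. The mean of the KO libraries lay between these pairs (log2 fold change -0.15, adjusted p = 0.885 by edgeR). With a trend in transcript length and level removed, the log2 fold change of Cd63 was -0.36. Scarb2, the receptor that brings glucocerebrosidase to lysosomes independently of mannose 6-phosphate, was lowest per length, at 34.6, 36.6, 29.4 and 25.5 CPM in wild type libraries and 31.1, 36.3, 22.0 and 49.0 CPM in KO. Its KO range enclosed the wild type range (log2 fold change 0.13, adjusted p = 0.923 by edgeR).

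Lamp1 and Lamp2, the main glycoproteins of the lysosomal membrane, gave -0.07 and -0.14. Lamp1 averaged 308 ± 34.9 CPM in wild type libraries and 294 ± 31.1 CPM in KO (SD, n = 4). Mcoln1, the calcium channel of the lysosome, and Npc1, the membrane cholesterol transporter, gave 0.09 and -0.09. Of the membrane class 5 of 6 intervals stayed inside 1.5-fold, and of the 29 soluble members 16 did. The soluble members had a median of -0.01. Grn, progranulin, a secreted precursor that reaches lysosomes through sortilin and prosaposin, stood at 171, 221, 191 and 188 CPM in wild type libraries and at 218, 201, 153 and 256 CPM in KO. Its lowest and its highest library were both KO (log2 fold change 0.10, interval -0.27 to 0.47, adjusted p = 0.916 by edgeR; -0.02 without KO replicate 4).

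**Figure D3:**
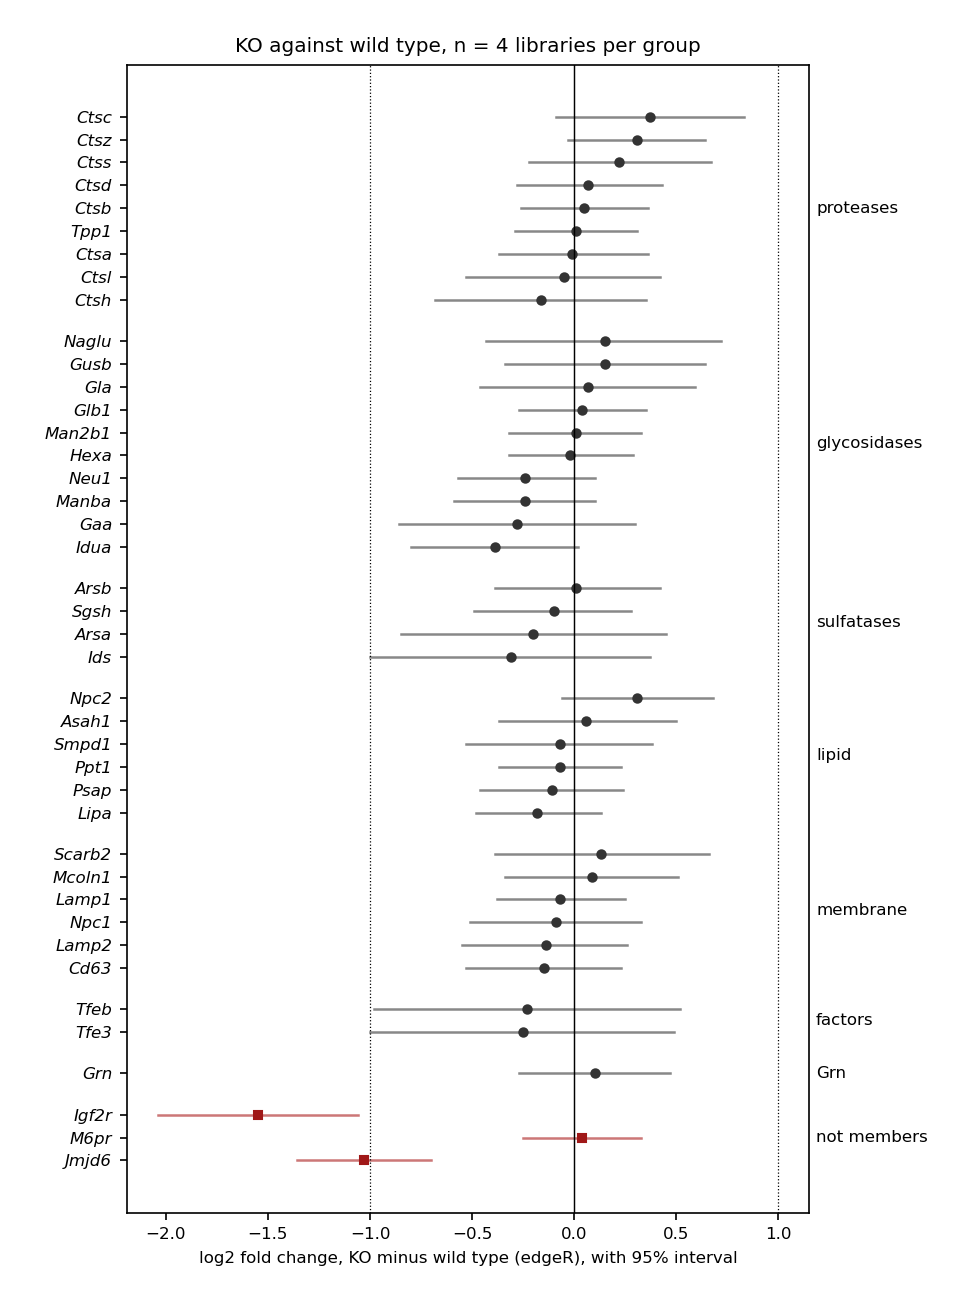
Log2 fold change of KO against wild type by edgeR with its 95% interval for the 38 lysosomal genes by class (circles), and for Igf2r, M6pr and Jmjd6 as references (squares); dotted lines mark -1 and 1. The member intervals all include 0, and the interval of Igf2r runs from -2.04 to -1.06.

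The order of levels per length was nearly shared by the groups. Per kilobase of transcript, wild type libraries held Psap at 244 ± 39.1, Ctsd at 226 ± 14.3 and Lamp1 at 138 ± 15.6 CPM (SD, n = 4), with Cd63 between Ctsd and Lamp1 at 181 CPM. Psap and Ctsd did not differ beyond their spread, and in KO the order of this pair was exchanged, with Ctsd at 238 and Psap at 226 CPM per kilobase. At the other end stood Tfeb at 4.58, Gla at 3.71 and Ids at 2.90 CPM per kilobase in wild type, whose spreads of 1.59, 0.894 and 0.922 overlapped. These 3 kept the last ranks, 36 to 38, in KO as well. Values per length depend on the annotated transcript chosen for each gene.

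The regulators Tfeb and Tfe3 both lay below 0 without passing the test. Tfeb had 7.62, 15.8, 8.94 and 9.65 CPM in wild type libraries and 8.97, 13.5, 4.58 and 9.06 CPM in KO (log2 fold change -0.23, interval -0.98 to 0.52, adjusted p = 0.908 by edgeR). Tfe3 had 26.7, 36.6, 29.9 and 26.2 CPM in wild type libraries and 30.5, 29.3, 8.47 and 31.9 CPM in KO (log2 fold change -0.25, adjusted p = 0.895 by edgeR). In both genes KO replicate 3 was the lowest of all 8 libraries and the other KO libraries lay inside the wild type range. Without KO replicate 3 their log2 fold changes were -0.01 and 0.04.

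Because TFEB and TFE3 bind CACGTG, the promoter sequences of the members were searched for it. RefSeq promoter sequences (GRCm38.p6, the build that mm10 names), from 250 bases before to 50 bases after the start, were at hand for 34 of the 38 genes. CACGTG, which reads the same on both strands, was found in 11 of the 34 (32.4%), against 8.09% of all 27025 genes with a promoter sequence. That larger set was not limited to the 13439 tested genes, to which all members belong. The longer TCACGTGA, which contains it and is also its own reverse complement, was found in Ctsa, Ctsd, Gla and Mcoln1, 4 of 34 (11.8%) against 1.12% of all. The windows of the 4 genes with TCACGTGA, and 1 of the 4 copies in the Lamp1 promoter, are shown 5′ to 3′ on the strand of the gene. CACGTG is in capitals, since this is the sequence that the regulators above are known to bind.
Ctsa (chr2:164833749-164833778, plus strand): tgagcaaactgtCACGTGatgcagatgctc
Ctsa (chr2:164833766-164833795, plus strand): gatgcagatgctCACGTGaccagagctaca
Ctsd (chr7:142387908-142387937, minus strand): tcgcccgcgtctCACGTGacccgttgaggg
Gla (chrX:134601182-134601211, minus strand): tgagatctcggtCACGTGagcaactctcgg
Gla (chrX:134601215-134601244, minus strand): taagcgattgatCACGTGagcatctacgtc
Mcoln1 (chr8:3500462-3500491, plus strand): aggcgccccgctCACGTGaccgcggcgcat
Lamp1 (chr8:13159121-13159150, plus strand): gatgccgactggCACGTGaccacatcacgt
In Lamp1 the copy shown begins 28 bases before the start, and in Mcoln1 45 bases before it. The other genes with CACGTG were Arsa, Ctsl, Gaa, Glb1, Naglu and Sgsh. A match is a description of these letters and does not show binding. The 11 members with CACGTG had a median log2 fold change of -0.01 (range -0.28 to 0.15), and the 23 members whose promoter sequence lacked it had a median of -0.07 (range -0.39 to 0.37).

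Delivery of the soluble enzymes depends on the receptors encoded by Igf2r and M6pr. Igf2r fell in KO, from 22.0, 16.6, 20.5 and 21.6 CPM to 5.98, 9.05, 6.71 and 5.81 CPM, which is 34.2% of wild type (log2 fold change -1.55, adjusted p = 0.0357 by edgeR). Leaving out any 1 of the 8 libraries ended the Igf2r call by edgeR (adjusted p from 0.0532 to 0.183) and kept the log2 fold change between -1.69 and -1.47. Its call held by DESeq2 and by limma voom. M6pr stood at 312 ± 23.0 CPM in wild type libraries and 321 ± 27.4 CPM in KO (SD, n = 4; log2 fold change 0.04, interval -0.25 to 0.33). Per kilobase of transcript, wild type libraries held 124 CPM of M6pr and 2.27 CPM of Igf2r. Of 16 genes of mannose 6-phosphate tagging and sorting, Igf2r was the 1 that passed the test. The median of that list was 0.01, with Vps29, a retromer subunit that returns receptors to the Golgi, at 0.30 and Gga3, a Golgi adaptor, at -0.26. Vps29 gave 0.03 and Gga3 -0.15 without KO replicate 3.

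Other genes of the lysosome and of autophagy had 0 past the test. Among 18 tested genes of the proton pump that acidifies lysosomes, 13 lay above 0 with a median of 0.07, and Tcirg1, Atp6v0e and Atp6v1e1 gave -0.36, 0.26 and 0.19. Without KO replicate 3, the highest library in 9 of the pump genes, the median was -0.02, Tcirg1 gave -0.18 and Atp6v0e 0.10. Of 31 other hydrolases and cofactors 19 lay above 0, with a median of 0.08 (-0.02 without KO replicate 4). Gm2a, the activator protein of ganglioside breakdown, stood at 373 ± 60.2 CPM in wild type libraries and 516 ± 101 CPM in KO (SD, n = 4; log2 fold change 0.47, adjusted p = 0.772 by edgeR). Ctse, an aspartic protease of endosomes, gave -0.73 and Lgmn, the asparaginyl endopeptidase, 0.67, with adjusted p of 0.772 and 0.817 by edgeR. Ctse was high in wild type replicate 1, with 62.4 CPM where the remaining wild type mice had 21.2 to 36.1 CPM. Lgmn was high in KO replicate 3, with 53.5 CPM where the remaining KO mice had 19.5 to 26.5 CPM, and gave 0.26 without it.

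Of 30 other membrane proteins and transporters 21 lay below 0, with a median of -0.11. KO replicate 3 was the lowest library in 16 of the 30, and without it the median was -0.05. Cd68, a heavily glycosylated protein of macrophage lysosomes, stood at 23.4, 18.5, 25.3 and 34.8 CPM in wild type libraries and at 34.3, 33.3, 64.1 and 37.1 CPM in KO (log2 fold change 0.73, adjusted p = 0.769 by edgeR). KO replicate 3 was high, and KO replicates 1 and 2 were just below the highest wild type library. Without KO replicate 3 the log2 fold change of Cd68 was 0.45. Tpcn2, a cation channel, and Cln3, a membrane protein lost in Batten disease, gave -0.44 and -0.32. The macrophage marker list (14 of 14 genes tested) summed to 175 to 289.5 CPM in wild type libraries and 192 to 302 CPM in KO. Of its genes 10 lay above 0, and none was at 0 throughout. An unadjusted p under 0.05 by edgeR was reached by 2 of the 14, both higher, against 6.06% of all tested genes. The defining genes of this list went different ways. Adgre1 and Csf1r gave log2 fold changes of -0.10 and -0.41, with levels between 5.12 and 15.9 CPM and between 13.4 and 43.6 CPM. The lectin gene Clec10a stood at 4.32 to 7.62 CPM in wild type and 14.8 to 17.8 CPM in KO, and the complement receptor gene Vsig4 at 0.2 to 1.2 CPM and 3.18 to 11.4 CPM. Both were higher in every KO library than in any wild type library, where 4.19% of all tested genes had groups without overlap in either direction. By edgeR the adjusted p was 0.112 for Clec10a and 0.149 for Vsig4. Their part in the values of Cd68 and of the members was not tested.

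The genes listed for the control of TFEB at the lysosome (22 tested), not all of which restrain it, had a median of 0.01, with 11 above and 11 below 0. Subunits of Ragulator, the scaffold that places mTORC1 on lysosomes, had the smallest p: Lamtor2 gave 0.53, Lamtor5 0.35 and Lamtor3 0.29, with adjusted p from 0.817 to 0.832 by edgeR. Without KO replicate 3 they gave 0.22, 0.19 and 0.21, and with a trend in transcript length and level removed 0.30, 0.14 and 0.14. Lamtor3 stood at 54.9, 77.2, 74.6 and 69.4 CPM in wild type libraries and 78.6, 79.9, 97.7 and 81.3 CPM in KO. It was the 1 gene of this list of 22 without overlap, against 4.19% of all tested genes in either direction. Of 23 autophagy genes 13 lay below 0, with a median of -0.03 (0.03 without wild type replicate 2). Ulk1, the kinase that starts autophagosome formation, stood at 74.7 ± 6.46 CPM in wild type libraries and 56.7 ± 12.8 CPM in KO (SD, n = 4; log2 fold change -0.40, adjusted p = 0.811 by edgeR), and Atg3 and Vps11 gave 0.25 and -0.21.

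**Figure D4:**
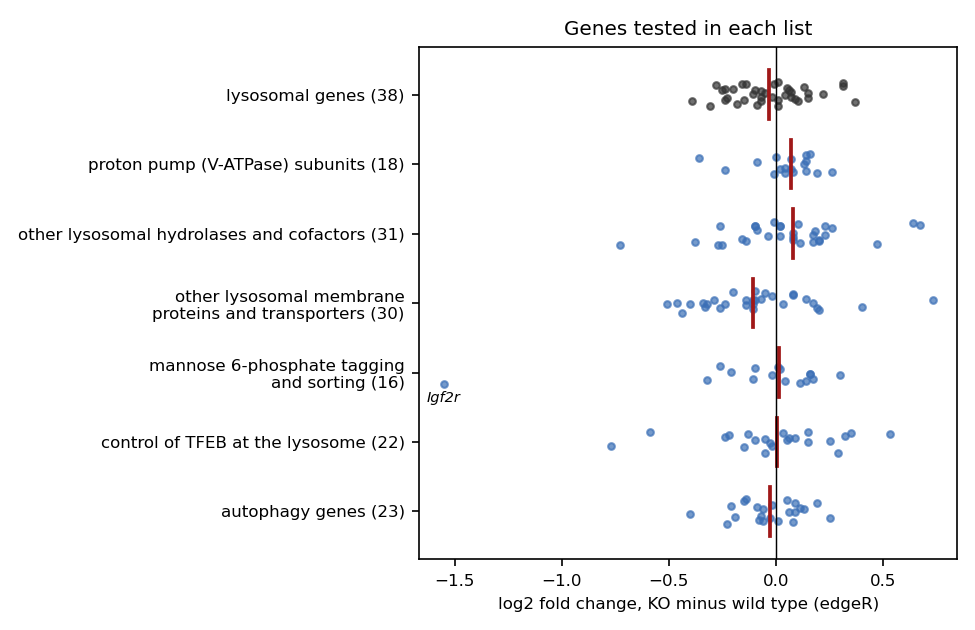
Log2 fold change of KO against wild type for the tested genes of each list, with 1 point per gene and a bar at the list's median; vertical position within a list is random. The medians lie between -0.11 and 0.08, and Igf2r stands apart at -1.55.

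Among the KO libraries, replicate 3 held many of the members' extremes. It was the lowest of the 8 libraries in 16 members (42.1%, against 27.7% of all tested genes) and the highest in 8 (21.1%, against 24.5%). Relative to the mean of the other KO libraries on the log2 CPM scale, it ran from -1.83 for Tfe3 to 0.91 for Gusb, the beta-glucuronidase. Arsa, Gaa, Tfeb and Naglu stood at -1.36, -1.32, -1.14 and -1.07, and Ctsc and Asah1 at 0.79 and 0.66. Gusb had 235 CPM there and 121 to 132 CPM in the other KO libraries, and its log2 fold change turned from 0.15 to -0.14 without that library.

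These deviations were ordered with base composition. Across the 38 members the deviation of KO replicate 3 had a Spearman correlation of -0.51 with the share of G and C bases in the transcript, and -0.26 across 13187 genes, values across genes of the same libraries that carry no test. Of 13 members with under 50% G and C, 9 lay above the mean of the other KO libraries, with a median of 0.30, and of the 25 others 7 did, with a median of -0.39. Tfeb, Naglu and Gaa, with 60.7%, 59.8% and 59.5% G and C the richest members, were among the 5 lowest. Other libraries, set against the rest of their group, were ordered with base composition as well. Wild type replicate 1 had correlations of -0.39 across members and -0.41 across genes, the latter farther from 0 than that of KO replicate 3. KO replicate 1 had 0.54 and 0.20. Wild type replicate 2 had 0.46 across members and 0.56 across genes, and was the highest library in 12 members (31.6%, against 14.6% of genes). The part of base composition in the members' values was not tested. Fold changes of KO against wild type had a Spearman correlation of -0.14 with G and C content and -0.24 with transcript length across members, beside -0.05 and -0.32 across genes.

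**Figure D5:**
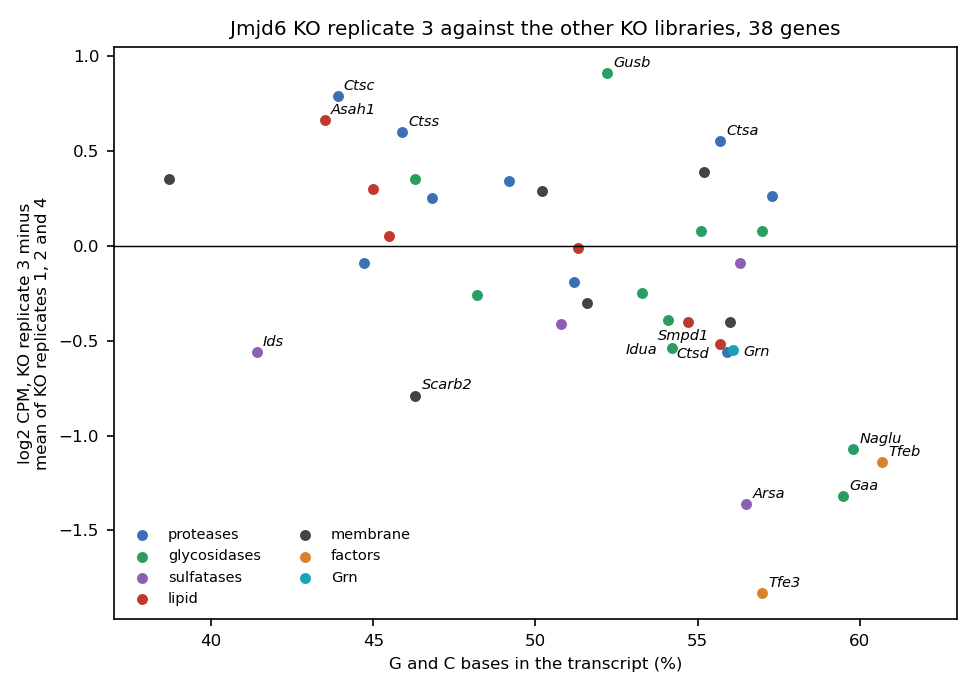
Log2 CPM of KO replicate 3 minus the mean of KO replicates 1, 2 and 4 (vertical axis) against the percent of G and C bases in the transcript (horizontal axis) for the 38 lysosomal genes, coloured by class. Points run from 0.91 for Gusb to -1.83 for Tfe3, and the genes near 60% G and C lie below -1.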

How the data were processed

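The authors deposited raw counts, whole numbers without normalization, of 26146 gene symbols in 8 libraries of LSK cells. Reads were aligned with HISAT2 to mm10, per the submitters' processing notes; neither a version, nor how reads were assigned to genes, by strand or not, is stated in the sources used here. From these counts, KO was compared with wild type over all 8 libraries by the quasi-likelihood test of edgeR 4.0.16 (R 4.3.3), with TMM scaling, no covariate, the default filterByExpr (minimum count 10, minimum total 15; 13439 genes kept) and Benjamini-Hochberg adjustment over all of them, called under 0.05. Alternatives used DESeq2 1.42.0 and limma 3.58.1. The scripts were tested on simulated counts. Log2 CPM used a prior count of 2. Total counts of 9344779 to 15079960 set the counting precision.

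Transcript length and base composition came from 1 GENCODE M21 transcript per gene, chosen by support level, then APPRIS principal status, then length, and were found for 98.1% of tested genes. The members, lists and tests were chosen with earlier results of these data known. Values in every library are given for members whose groups did not overlap, for the highest and lowest member per length in each class of 4 or more, and for Tfeb, Tfe3 and Grn. Outside the members, Jmjd6, Igf2r, M6pr and up to 3 genes per list with the smallest p are named, some by their fold change alone. Further members with values of single libraries (Ctsc, Ctsz, Idua, Gaa, Npc2, Asah1, Gusb) and the marker genes named were chosen after their values were seen, as was the recomputing of class and list medians without each library.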

Additional observations from a re-analysis of the deposited data

Results flagged for a closer look

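In each group of 4 libraries, a value was picked out when its gap to the nearest other library, divided by the whole range, exceeded Dixon's 95% critical value. Chance picks out about 1 in 20 groups. Among the 76 groups of member values, 4 were picked out, 3 of them KO replicate 3. Ctsa reached 234 CPM in KO replicate 3, against 156 to 164 CPM in the other KO libraries. Gusb reached 235 CPM in the same library, against 121 to 132 CPM. Tfe3 had 8.47 CPM there, against 29.3 to 31.9 CPM. Ctsh stood at 24.8 CPM in KO replicate 4, against 12.4 to 14.5 CPM in the other KO libraries.

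Among the 8 groups of marker sums checked, 3 were picked out, all for wild type replicate 1. The check did not take in every marker list, so this share does not describe all of them. Neutrophil and granule markers summed to 5226 CPM there, where wild type replicates 2 to 4 had 982 to 1254 CPM. Erythroid markers summed to 419 CPM, against 20.2 to 65.3 CPM. Monocyte and dendritic cell markers summed to 577 CPM, against 378 to 396 CPM.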

How the results depend on the processing

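No member was called under any alternative that gives a test, nor at a threshold of 0.1; the removal of a length and level trend gives values with no test. The lowest adjusted p of a member over these alternatives was 0.347, for Cd63 by limma voom. Removal of the trend moved 2 members by over 1 standard error, Ctsz from 0.31 to 0.15 and Cd63 from -0.15 to -0.36. Over all genes the 8 calls became 66 by DESeq2, 31 by limma voom, 4 with only the libraries that hold Y-linked counts, 4 without wild type replicate 1 and KO replicate 3 together, 3 with the replicate block, and 2 to 8 with single libraries left out. For Igf2r and Jmjd6 the log2 fold change kept its direction in every alternative fitted. By edgeR the adjusted p of Jmjd6 was 0.0401 without KO replicate 3 and 0.0986 to 0.254 without any other library. With only the libraries that hold Y-linked counts, the adjusted p by edgeR was 0.142 for Igf2r and 0.105 for Jmjd6, with wild type replicate 1 and KO replicate 3 both out it was 0.0806 and 0.0629, and with the replicate block 0.352 and 0.402. The median log2 fold change ran from -0.08 to 0.02 over the 38 members, from -0.06 to 0.06 over the soluble members and from -0.10 to 0.02 over the membrane members with single libraries left out. The membrane median turned from -0.08 to 0.02 both without wild type replicate 4 and with only the libraries that hold Y-linked counts; the cause was not tested. Of 722 recomputed member fold changes 74 changed sign, all of values that had not passed the test, and 13 members never changed sign. By edgeR, Idua reached an unadjusted p under 0.05 with library size scaling alone, without wild type replicate 1 (also with KO replicate 3 out) and without KO replicate 2, Ctsz without KO replicate 1 or 2, Npc2 without KO replicate 1 and Ctsh without KO replicate 4. Same-numbered libraries did not pair: their deviations from the group means correlated at 0.032, -0.012, -0.184 and -0.192, no wild type library correlated best with its own number, and the replicate block left 0 members called.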

Other observations

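Neu1, the member whose groups did not overlap, shares chromosome 17 with 3 of the 8 genes called over the whole table, Igf2r, H2-Q6 and H2-Q7, all lower in KO. Another member, Tfeb, lies on this chromosome as well. The share of all tested genes that lie on it was not counted. H2-Q6 and H2-Q7 are close paralogs, so reads may have been split between them. Igf2r lies 22.2 Mb away from Neu1. H2-Q6 at chr17:35424850-35430055 (log2 fold change -2.28, adjusted p = 0.0238 by edgeR) lies within 500 kb of Neu1. Of 48 other tested genes that reach within 500 kb of Neu1, the log2 fold change was negative in 31, and its median was -0.15 beside 0.00 over all genes. Among these 48 genes H2-Q6 was the 1 called (0.0595% of all tested genes were), 5 had an unadjusted p under 0.05 (6.06% of all), and 3 had groups that did not overlap, all lower in KO (4.19% of all, in either direction). This neighbourhood was looked at after the Neu1 values were seen, and it carries no test.

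KO replicate 4 was the highest of the 8 libraries in 11 members (28.9%, against 16.4% of tested genes) and the lowest in 0 of 38 (against 14.5%). These 11 members were Ctsd, Ctsh, Ctsl, Ctsz, Glb1, Man2b1, Naglu, Npc2, Cd63, Scarb2 and Grn.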
